A study of Mus musculus with 6 samples.

Results

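The Groucho family corepressors were examined in male embryos at E9.5, comparing the short family member *Aes* with the full-length genes *Tle1*, *Tle2*, *Tle3* and *Tle4* and with the divergent *Tle6*. These 6 genes were found by symbol among 24207 loci, and each was listed at a single locus. They were selected on *Aes*, which was chosen by its pooled transcript levels in these same embryos, so the difference in *Aes* is given as a description and the family genes are set beside it. RNA from whole embryos was sequenced for 3 *Smchd1*+/+ and 3 *Smchd1*MommeD1/MommeD1 embryos, all male and produced by mating heterozygous parents. *Smchd1* encodes a chromatin protein with a structural-maintenance-of-chromosomes hinge, needed for X inactivation, and MommeD1 is its chemically induced mutant allele, carried on both copies in the mutant group. The labels name C57Bl6/J x FVB/n as the background for both groups, whereas the text of the study describes a backcross to another strain for this experiment. The comparison asks which transcripts differ when *Smchd1* is lost in males, in which no X chromosome is inactivated.

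Values are FPKM, fragments per kilobase of transcript scaled to the mapped fragments of a library, so levels can be compared between genes per length. The authors' table holds 1 pooled value per genotype, with no value per embryo, so no spread between embryos can be given. The authors' test statistics were not used, so no error is given for any difference below. No test was run here, and how deeply each embryo was sequenced is not known. Ratios are log2 of mutant over wildtype FPKM after adding 0.1 FPKM to each value, which understates the change of low genes. Where a pair of levels is given without group names, the mutant level comes first. A gene was counted as measured at a mean of at least 1 FPKM over both genotypes. In whole embryos, more cells of a type and more RNA per cell cannot be told apart. *Smchd1* itself was at 2.12 FPKM in the mutant and 34.0 FPKM in the wildtype group, a log2 ratio of -3.94, so the group labelled mutant was the one with the low *Smchd1* level.

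Groucho proteins, called TLE in mammals, do not bind DNA. They are brought to genes by transcription factors such as the Hes, Runx, Tcf/Lef and engrailed-homology repressors, and silence them together with histone deacetylases. Full-length members pair through a glutamine-rich amino-terminal domain, which also meets Tcf/Lef proteins, and hold their DNA-bound partners through a carboxy-terminal WD40 propeller. *Aes*, also named *Grg5* or *Tle5*, encodes only the amino-terminal part and lacks the propeller, so it has been studied as a modulator of the longer proteins. *Tle6* is best known from the oocyte, where its protein is part of the subcortical maternal complex.

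In the GENCODE M21 annotation of GRCm38 (mm10), the principal *Aes* transcript has a coding length of 594 bases, or 197 codons before the stop. The principal transcripts of *Tle1*, *Tle2*, *Tle3* and *Tle4* have coding lengths of 2313, 2304, 2349 and 2322 bases, and that of *Tle6* has 1746. The *Aes* reading frame therefore stops well inside the length of its relatives. Only *Aes* coding bases 75 to 189 aligned locally with *Tle2*, so the search for a stretch alike in all genes was limited to them. The coding stretch of 60 bases below is the ungapped one there in which *Aes* is most like the 4 full-length genes together. It starts at coding base 115 of *Aes*, *Tle1* and *Tle3*, 112 of *Tle2* and 133 of *Tle4*. Capitals in the *Aes* line mark the 39 bases shared by all 5 genes, and capitals in each other line mark bases equal to those of *Aes*.
Aes: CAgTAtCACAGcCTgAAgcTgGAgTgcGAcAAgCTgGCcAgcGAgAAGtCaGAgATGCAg
Tle1: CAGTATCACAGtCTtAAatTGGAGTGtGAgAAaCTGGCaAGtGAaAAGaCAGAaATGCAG
Tle2: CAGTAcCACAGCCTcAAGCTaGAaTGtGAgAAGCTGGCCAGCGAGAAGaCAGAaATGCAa
Tle3: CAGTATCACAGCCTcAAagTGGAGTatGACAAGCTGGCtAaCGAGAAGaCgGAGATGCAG
Tle4: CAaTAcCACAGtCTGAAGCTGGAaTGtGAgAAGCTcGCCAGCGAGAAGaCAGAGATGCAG
In this stretch *Aes* shares 48 bases with *Tle1*, 51 with *Tle2*, 51 with *Tle3* and 52 with *Tle4*. The last 60 coding bases of *Aes* follow, to show where its frame ends, with the stop codon in capitals.
Aes end: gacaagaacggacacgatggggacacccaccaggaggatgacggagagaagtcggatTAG
Despite this likeness, the *Aes* transcript and those of *Tle1*, *Tle2*, *Tle3*, *Tle4* and *Tle6* have no run of 100 bases in common, the length of the reads. The longest run shared with *Aes* was 24 bases, in *Tle3*. Among the other pairs the longest was 68 bases, between *Tle1* and *Tle4*. No pair of these principal transcripts therefore shares an identical read.

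*Aes* was at 53.3 FPKM in the mutant group and 26.3 FPKM in the wildtype group, a difference of 27.0 FPKM. This is a log2 ratio of 1.01, or 2.02-fold. No full-length gene differed by as much as 1.5-fold. *Tle3*, the most abundant of them, was at 35.99 FPKM in the mutants and 33.9 FPKM in the wildtype group, a log2 ratio of 0.09. *Tle4* was at 17.6 FPKM and 18.6 FPKM, a log2 ratio of -0.08. *Tle1* was at 15.5 FPKM and 14.02 FPKM, a log2 ratio of 0.14. These 3 genes thus sat at nearly the same level in both groups, and no error is given for the small differences that remain.

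The remaining genes of the family were scarce. *Tle6* was at 0.782 FPKM in the mutant group and 0.863 FPKM in the wildtype group, a log2 ratio of -0.13. *Tle2* was at 0.299 FPKM and 0.367 FPKM, a log2 ratio of -0.23, and the authors' program marked its reads as too few for a test. Both fell under the filter of 1 FPKM, so 4 of the 6 genes passed it. In wildtype embryos the order of the levels was *Tle3*, *Aes*, *Tle4*, *Tle1*, *Tle6* and *Tle2*, and in the mutant group *Aes* stood above *Tle3*, with the other genes in the same order. Since no spread was available, it is not known which neighbours in these orders differ. *Aes* lay above 90.6% of all loci with a symbol by its mean level, *Tle3* above 89.3%, *Tle4* above 81.1% and *Tle1* above 77.9%, whereas *Tle6* and *Tle2* lay above 46.9% and 41.4%.

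**Figure D1:**
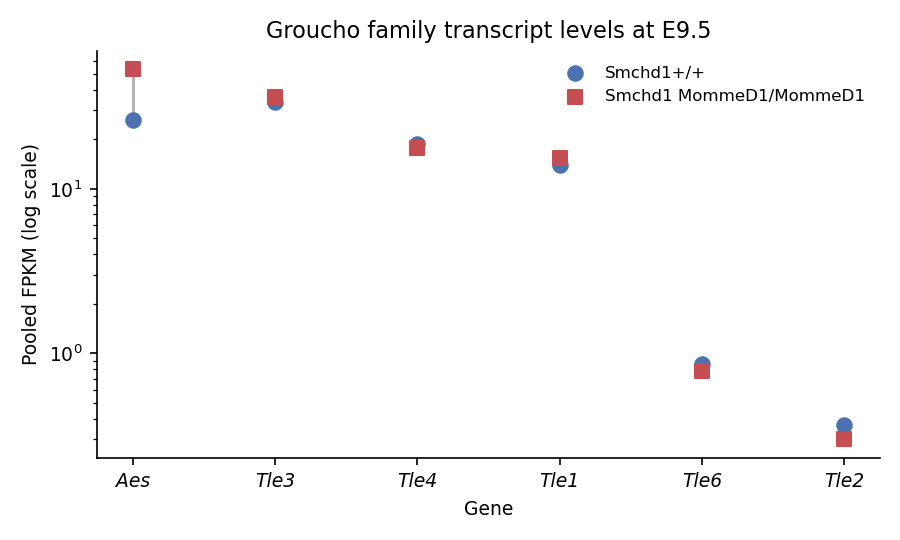
Pooled FPKM (vertical axis, log scale) of the 6 genes (horizontal axis) in Smchd1+/+ (blue circles) and Smchd1 MommeD1/MommeD1 embryos (red squares), joined by a grey line, with 1 value per genotype and so no error bars. The pair of points is far apart only for Aes, at 26.3 and 53.3 FPKM.

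The balance between the short form and the full-length genes was compared inside each genotype, where a scaling factor between the groups has no effect. The summed level of *Tle1*, *Tle2*, *Tle3* and *Tle4* was 69.3 FPKM in the mutant and 66.9 FPKM in the wildtype group, a log2 ratio of 0.05. *Aes* was 0.769 times this sum in the mutant and 0.394 times in the wildtype group, a difference of 0.96 on the log2 scale. Of the summed FPKM of these 5 genes, *Aes* made up 43.5% in mutant and 28.3% in wildtype embryos. *Tle3* went from 36.3% in wildtype to 29.3% in mutant embryos, although its own FPKM was not lower there. *Tle4* held 20.0% in wildtype and 14.3% in mutant embryos, and *Tle1* held 15.0% and 12.6%. *Tle2* stayed below 1% of the sum in both. Against *Tle3* alone, *Aes* was at 0.778 times its level in wildtype and 1.481 times in mutant embryos, which is the exchange of the first place in the order.

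**Figure D2:**
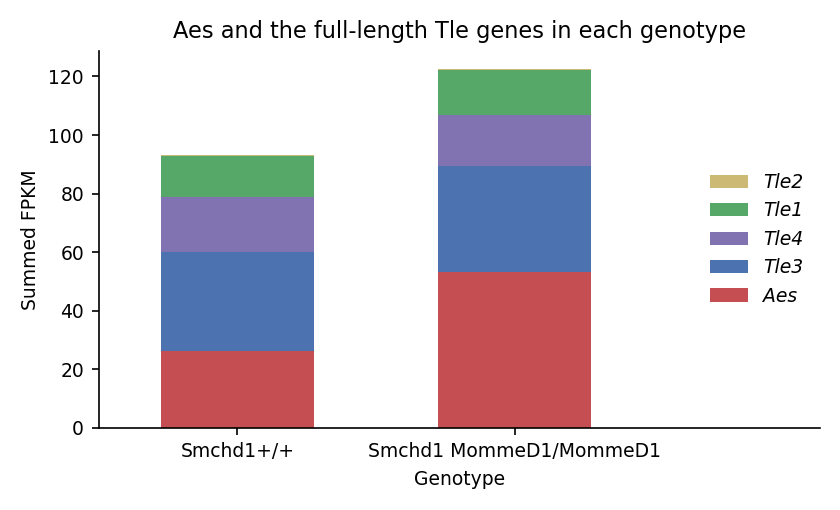
Stacked bars of pooled FPKM (vertical axis, from 0) of Aes and the 4 full-length genes in each genotype (horizontal axis), with 1 value per genotype. The sum is 93.2 FPKM in Smchd1+/+ and 123 FPKM in Smchd1 MommeD1/MommeD1 embryos, and the red Aes part accounts for most of the difference.

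Among the 11980 loci with a symbol and a mean of at least 1 FPKM, 3.20% were at least 1.5-fold higher in the mutant group and 1.08% were at least 1.5-fold lower. At 2-fold, these shares were 0.860% and 0.351%. Of the 4 family genes that passed the filter, *Aes* was past 1.5-fold and 2-fold in the higher direction and none was past either fold in the lower direction. Since *Aes* was selected on this difference, nothing is read from that count, the family median or the place of *Aes* among other loci. The median log2 ratio of the 4 genes was 0.11, beside -0.01 over all 11980 loci. By log2 ratio *Aes* stood at place 99 from the highest. High ratios were rarer among abundant loci. In the 3010 loci whose mean lay within 2-fold of that of *Aes*, the log2 ratio ran from -0.19 at the 10th percentile to 0.16 at the 90th, and 6 loci, *Aes* included, reached 1.01 or more. The other 5, named after their values were seen, were *Tubb3*, *2610017I09Rik*, *Peg12*, *Fabp7* and *Alas2*. *Tubb3* encodes a tubulin of neurons, *Fabp7* a fatty acid binding protein of neural progenitors, and *Alas2* the first heme synthesis enzyme of red cells. *Tle3*, *Tle4* and *Tle1* lay between the 10th and 90th percentiles of loci at their own levels, above 79.9%, 32.0% and 82.8% of them.

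**Figure D3:**
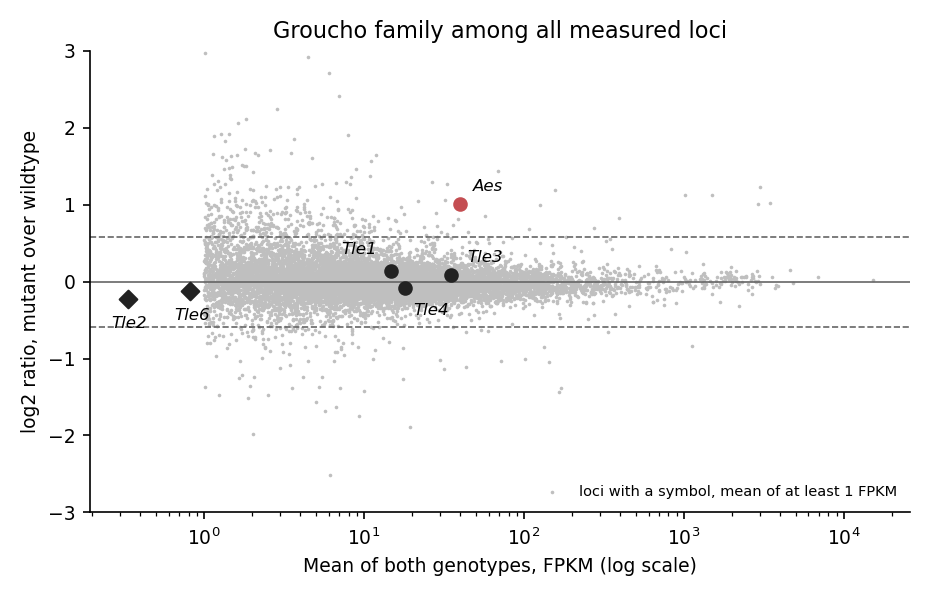
log2 ratio of mutant over wildtype FPKM (vertical axis) against the mean of both genotypes in FPKM (horizontal axis, log scale) for all measured loci (grey), with Aes in red, other family genes in black and the 2 genes under 1 FPKM as diamonds. Dashed lines mark 1.5-fold, 9 loci beyond a log2 ratio of 3 are outside the plot, and Aes lies above nearly all grey points at its level while Tle1, Tle3 and Tle4 lie inside it.

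*Aes*, *Tle2* and *Tle6* lie together on chromosome 10 of mm10. GENCODE places *Aes* at 81559488 to 81566362 and *Tle2* at 81574561 to 81590845, both on the plus strand, and *Tle6* at 81590904 to 81601073 on the minus strand. *Aes* and *Tle2* are 8198 bases apart, and *Tle2* and *Tle6* end against each other with 58 bases between them. The libraries were not strand-specific, so reads past the ends of *Tle2* and *Tle6* cannot be assigned by strand. *Aes* overlapped no other gene in GENCODE, while *Tle2* and *Tle1* each overlapped an antisense gene. *Tle1* is on chromosome 4, *Tle3* on chromosome 9 and *Tle4* on chromosome 19.

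Within 250 kb of *Aes* there were 25 other loci with a symbol, of which 17 were measured. Of these, 1 was at least 1.5-fold higher in the mutant group, none was as much lower, beside 3.20% and 1.08% of all loci, and the median log2 ratio was 0.07. A single locus among 17 is too few to set apart from those shares. The locus past the fold was *Nfic*, a nuclear factor I gene, at 2.44 FPKM in the mutants and 1.498 FPKM in the wildtype group, a log2 ratio of 0.67. The nearest locus upstream, *Gna11*, which encodes a G protein subunit, was at 27.9 FPKM and 26.6 FPKM, a log2 ratio of 0.07. Downstream, *Tle2* and *Tle6* were both under 1 FPKM, and the nearest measured locus was *Sirt6*, a deacetylase gene, at 16.3 FPKM and 14.3 FPKM, a log2 ratio of 0.19.

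**Figure D4:**
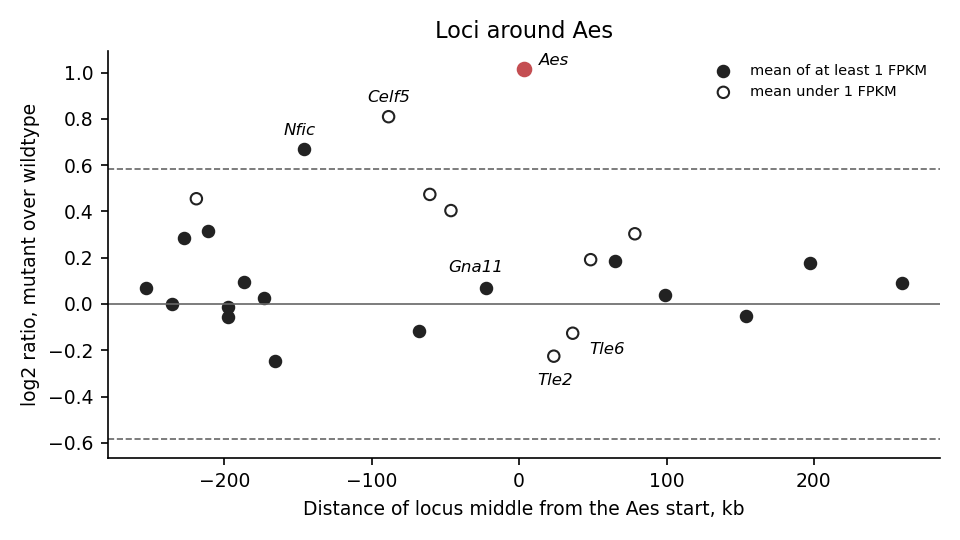
log2 ratio of mutant over wildtype FPKM (vertical axis) of loci with a symbol around Aes, placed by the distance of their middle from the Aes start in kb (horizontal axis), filled where the mean is at least 1 FPKM and open where it is lower. Dashed lines mark 1.5-fold, Aes (red) is the highest point at 1.01, and Nfic at 0.67 is the other filled point above the line.

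With 2 pooled values per locus, likeness to *Aes* could only be measured as the distance between log2 FPKM values in both genotypes. The 5 nearest measured loci were *Snora81*, *Mgst3*, *Trp53i11*, *Tmem98* and *Crmp1*, at distances of 0.14 to 0.42 on the log2 scale, and all had lower log2 ratios than *Aes*, between 0.57 and 0.82. *Mgst3*, a microsomal glutathione transferase gene, was at 45.0 FPKM in the mutants and 26.8 FPKM in the wildtype group. *Crmp1*, which encodes a collapsin response mediator of growing axons, was at 39.9 FPKM and 25.996 FPKM. The locus of *Snora81*, a small nucleolar RNA, overlaps the protein-coding genes *Eif4a2* and *Rfc4*, that of *Crmp1* overlaps *Evc*, and that of *Trp53i11* overlaps *Tspan18*, so these 3 values are uncertain.

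Genes of families with members that recruit Groucho proteins were listed from general knowledge, with earlier results of these data known. Whether each listed gene, the Hey genes included, recruits Groucho proteins was not examined here. The list held 36 genes, of which 29 were measured. Of these, 2 were at least 1.5-fold higher in the mutant group (6.90%) and 3 were at least 1.5-fold lower (10.3%), beside 3.20% and 1.08% of all 11980 loci. These are few genes, and 1 of the lower ones, *Hes7*, was under 1 FPKM in the mutant group and passed the filter through its wildtype level. The median log2 ratio of the 29 genes was -0.09, beside -0.01 over all loci. Both higher genes belong to the Hes and Hey family, many of whose members are effectors of Notch signalling. *Heyl* was at 4.05 FPKM in the mutants and 2.11 FPKM in the wildtype group, a log2 ratio of 0.91. *Hes6*, which favours neuronal differentiation and opposes *Hes1*, was at 29.3 FPKM and 17.9 FPKM, a log2 ratio of 0.71. Among the lower genes, *Hes7*, an oscillator of the segmentation clock, was at 0.922 FPKM and 2.83 FPKM, a log2 ratio of -1.52. *Hes3*, a repressor gene active in neural progenitors, was at 4.35 FPKM and 7.14 FPKM, a log2 ratio of -0.70. *Hes1*, by its mean over both groups the most abundant of the Hes and Hey genes within 1.5-fold, was at 21.8 FPKM and 24.4 FPKM, and *Hes5* was close to it at 26.8 FPKM and 18.6 FPKM. The Hes and Hey genes thus lay on either side of 0, with a median of -0.06 over the 8 of 9 measured.

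All 4 Tcf/Lef genes, which carry Wnt signals to DNA, were within 1.5-fold, and the most abundant, *Tcf7l1*, was at 32.8 FPKM in the mutants and 30.2 FPKM in the wildtype group. None of the 3 Runx genes reached a mean of 1 FPKM. Over all loci, 3.20% were at least 1.5-fold higher and 1.08% were as much lower. Of 20 homeodomain and other partners, 17 were measured and 16 were within 1.5-fold. The measured gene past it was *Ripply3*, whose protein turns T-box factors into repressors through Groucho, at 3.22 FPKM and 4.96 FPKM, a log2 ratio of -0.61. Both of its relatives fell under the filter, with *Ripply2* at 0.327 FPKM and 1.13 FPKM, a log2 ratio of -1.53, and *Ripply1* at 0.589 FPKM and 0.936 FPKM, a log2 ratio of -0.59. *Nkx6-1*, a ventral neural tube repressor and the most abundant of this list, was at 11.5 FPKM and 10.9 FPKM.

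Genes that act with or on the corepressors were counted next, and since only 3.20% of all loci were at least 1.5-fold higher and 1.08% lower, lists wholly within 1.5-fold are near what all loci show. All 4 class I histone deacetylases were within 1.5-fold, with log2 ratios from -0.06 to 0.06, and the most abundant, *Hdac2*, was at 132 FPKM in the mutants and 136 FPKM in the wildtype group. All 7 enzymes known to modify Groucho proteins were too, with log2 ratios from -0.11 to 0.10, led by the casein kinase subunit gene *Csnk2b* at 147 FPKM and 146 FPKM. The 17 other corepressor genes were all within 1.5-fold and had a median of 0.03. Of these, *Ctbp1* was the most abundant at 134 FPKM and 126 FPKM, and *Nab2*, a corepressor of early growth response factors, had the highest log2 ratio at 0.46.

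In Wnt signalling, Groucho proteins and β-catenin compete for Tcf/Lef factors. All 5 genes for β-catenin and its coactivators were within 1.5-fold, as were most of all loci, with log2 ratios from 0.01 to 0.35, and *Ctnnb1*, which encodes β-catenin, was at 421 FPKM in the mutants and 418 FPKM in the wildtype group. Of 9 Wnt target genes, 8 were measured, of which none was at least 1.5-fold higher and 2 were as much lower, beside 3.20% and 1.08% of all loci. Their median log2 ratio was 0.04. *T*, the Brachyury gene of the tail bud, was at 3.23 FPKM and 7.75 FPKM, a log2 ratio of -1.24. *Sp5* was at 3.03 FPKM and 5.58 FPKM, a log2 ratio of -0.86. The other 6 were within 1.5-fold, among them *Ccnd1* at 108 FPKM and 96.4 FPKM and the feedback inhibitor gene *Axin2* at 15.6 FPKM and 15.1 FPKM.

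For the maternal role of *Tle6*, genes of the subcortical maternal complex were examined, of which 5 of 6 were in the table and *Khdc3* was not analysed here. Besides *Tle6*, the oocyte genes *Nlrp5*, *Padi6* and *Ooep* were scarce in both groups, the highest being *Ooep* at 0.304 FPKM and 0.181 FPKM. *Zbed3*, which is also active outside the oocyte, was at 22.6 FPKM in the mutants and 19.9 FPKM in the wildtype group.

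Markers of cell types moved between the groups beside *Aes*. The marker lists were chosen with earlier results of these data known, so their counts are a description only. Of 15 neuron markers, 14 were in the table and measured, while *Map2* was not analysed here. Of the 14, 11 were at least 1.5-fold higher in the mutant group and none was as much lower, beside 3.20% and 1.08% of all loci, with a median log2 ratio of 1.21. Of the 11, *Cntn2* was under 1 FPKM in the wildtype group and passed the filter through its mutant level. Their summed level was 266 FPKM in the mutants and 125 FPKM in the wildtype group, and the most abundant, *Tubb3*, was at 99.9 FPKM and 37.0 FPKM. The highest ratios were those of *Cntn2*, an axonal adhesion gene, at 4.76 FPKM and 0.925 FPKM, and of *Dcx*, the doublecortin gene of migrating neurons, at 5.37 FPKM and 1.62 FPKM. They were followed by the neurofilament genes *Nefm*, at 16.6 FPKM and 5.51 FPKM, and *Ina*, at 13.1 FPKM and 4.69 FPKM. The growth cone gene *Gap43*, at 39.9 FPKM and 31.4 FPKM, was within 1.5-fold. Of 8 neural progenitor markers, 1 was past 1.5-fold, *Fabp7* at 43.1 FPKM and 20.6 FPKM, and the list summed to 299 FPKM and 232 FPKM, led by the RNA-binding protein gene *Msi1* at 82.6 FPKM and 65.6 FPKM. The log2 ratio of *Aes* thus lay under the median of the neuron markers and above that of the progenitor markers, 0.27. The erythroid markers, described next, had a median of 1.01, close to the ratio of *Aes*.

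The same shares of all loci, 3.20% higher and 1.08% lower, stand beside the counts of the other cell types. These lists too were chosen with earlier results known, and their counts are a description only. Outside the nervous system, 8 of 10 erythroid loci were at least 1.5-fold higher in the mutant group, with a median log2 ratio of 1.01 and a sum of 16172 FPKM against 7612 FPKM, most of it globin RNA, led by *Hba-x*. The adult α-globin genes *Hba-a1* and *Hba-a2* are near-identical copies, so how reads were split between their loci is uncertain. *Hbb-y*, an embryonic globin gene, was at 4191 FPKM and 1787 FPKM. Of 5 megakaryocyte loci, 4 were measured and past the same fold, but 2 of these, *Ppbp* and *Itga2b*, were under 1 FPKM in the wildtype group and passed the filter through their mutant level, so nothing is read from that count. *Ppbp*, a platelet chemokine gene, was at 1.87 FPKM and 0.151 FPKM, and *Itga2b*, a platelet integrin gene, at 1.601 FPKM and 0.759 FPKM. The platelet factor gene *Pf4* was at 10.6 FPKM and 1.53 FPKM. The most abundant locus of the list is shared by *Gp1bb* and another gene, and all 5 listed loci summed to 28.5 FPKM and 10.8 FPKM. Of 9 tail bud markers, 6 were at least 1.5-fold lower, among them *Hes7*, which passed the filter through its wildtype level. The list summed to 32.1 FPKM and 54.0 FPKM, and its most abundant gene, *Dll3*, was at 9.87 FPKM and 7.502 FPKM. *Cdx2*, a posterior homeobox gene, was at 3.22 FPKM and 10.1 FPKM, the homeobox gene *Nkx1-2* was at 1.92 FPKM and 5.18 FPKM, and *Msgn1*, a gene of the presomitic mesoderm, was at 2.88 FPKM and 7.57 FPKM. *T*, named above, also belongs to the tail bud list. Of 8 visceral endoderm markers, 4 were measured, of which *Ttr*, *Rbp4* and *Apoa1* were as much lower and *Afp*, the most abundant, was at least 1.5-fold higher. The transthyretin gene *Ttr* was at 2.48 FPKM and 7.51 FPKM, and *Afp*, the α-fetoprotein gene, at 14.7 FPKM and 8.10 FPKM. All 8 listed loci, those under the filter included, summed to 25.96 FPKM and 33.9 FPKM. Of 7 muscle and heart markers *Myog* was past the fold, in the higher direction, and the list, led by *Myl7*, summed to 738 FPKM and 909 FPKM. None of the 5 endothelium markers, led by *Cdh5*, or the 15 housekeeping genes was past it, and the endothelium markers summed to 59.9 FPKM and 62.5 FPKM. No marker in these lists was listed at 0. The part of these cell types in the difference in *Aes* was not tested.

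**Figure D5:**
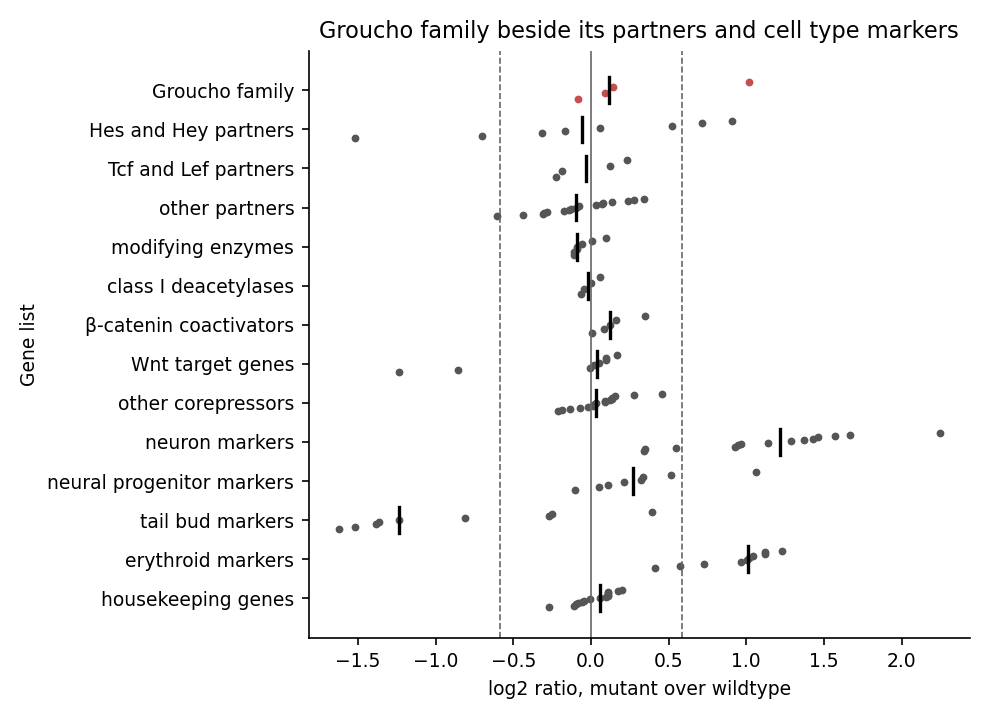
log2 ratio of mutant over wildtype FPKM (horizontal axis) of each measured locus in 14 gene lists (vertical axis), with the Groucho family in red and a black bar at each list's median. Dashed lines mark 1.5-fold, Aes stands apart from the other 3 family genes at 1.01, and the neuron, erythroid and tail bud markers have medians of 1.21, 1.01 and -1.24.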

How the data were processed

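The 6 male embryos, taken at E9.5, were assigned to 2 groups of 3 by their genotype labels and measured by RNA-seq. Per the submitters' processing notes, the authors aligned reads with TopHat2 2.0.6 and Bowtie2 2.0.2 to mm10 and compared the genotypes with Cuffdiff 2.0.2. The deposited FPKM values, 1 per genotype and locus, are the authors' pooled values. The first belongs to the mutant group, as the study's own copy of the table names it. The table also holds the authors' fold changes, test statistics, p-values and q-values, which were not used. Locus starts were counted from 1, since 8974 of 20271 RefSeq starts (GRCm38.p6) then matched, against 572 otherwise.

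Log2 ratios were computed with 0.1 FPKM added, and loci past 1.5-fold or 2-fold were counted among those with a symbol and a mean of at least 1 FPKM. No test was run, as there is 1 value per genotype. The members and gene lists were chosen with earlier results of these data known. Genes to name were drawn by a rule from all family genes, *Smchd1*, loci within 250 kb of *Aes*, the 5 loci nearest to it in value, and, per list, up to 4 genes past 1.5-fold with the largest ratios and the most abundant other gene. Not every gene the rule allows is named, and further genes, such as the most abundant of a list, were named after their values were seen. Coding sequences and gene positions came from GENCODE M21, using each gene's principal transcript, and were aligned locally with Biopython 1.88 (match 2, mismatch -3, gap opening -5, extension -2). Alternatives were other pseudocounts, filters and scalings. The counting step was tested on simulated data. Python 3.11.15, numpy 2.4.6, pandas 2.3.3 and matplotlib 3.10.9 were used.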

Additional observations from a re-analysis of the deposited data

How the results depend on the processing

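The log2 ratio of *Aes* lay between 0.99 and 1.06 under the 6 alternatives run (no pseudocount, 1 FPKM added, centring on the median locus, and rescaling to the same total, upper quartile or housekeeping genes). It was under 2-fold only with 1 FPKM added, at 0.99. *Tle1* stayed between 0.13 and 0.18, *Tle3* between 0.09 and 0.13, *Tle4* between -0.08 and -0.04, *Tle6* between -0.14 and -0.06 and *Tle2* between -0.29 and -0.07. With *Tle6* added to the sum or 0.1 FPKM added to each gene, the *Aes* share kept to 43.2% to 43.4% in mutant and 28.0% to 28.2% in wildtype embryos. No scaling moved the median locus by as much as 0.1. The numbers of loci past a fold followed the filter, which sets how many low loci enter. They also followed the pseudocount, which shrinks the ratios of low loci when it is larger. With 1 FPKM added, 219 loci were at least 1.5-fold higher and 75 lower, and 44 and 26 were past 2-fold. At a mean of at least 0.1 FPKM these were 894, 342, 278 and 99, and at a mean of at least 10 FPKM 52, 31, 18 and 17. With loci without a symbol included, 64 were at least 2-fold lower. List medians moved by over 0.1 in 6 recomputed values and by less in 120. With 1 FPKM added, the neuron median went from 1.21 to 1.03, megakaryocyte from 1.85 to 0.985, tail bud from -1.24 to -0.99 and visceral endoderm from -0.86 to -0.70. At a mean of at least 0.1 FPKM, visceral endoderm went to -1.26 and Hes and Hey from -0.06 to 0.06. No paired analysis was possible because 1 pooled value per genotype was used, and leaving out each embryo was not possible for the same reason.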

Other observations

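Promoter sequences from RefSeq (GRCm38.p6), from 250 bases before to 50 bases after the start, were found for 5 of the 6 family genes, all but *Aes*, with 2 entries each for *Tle4* and *Tle6*. They were searched on both strands for the E-box CACGTG, which reads the same on both strands, and for the Hes site CACGCG. No promoter of these genes held both. Both motifs were chosen after the promoters had been seen. Of 32851 promoters of the same length, 7.15% hold the E-box and 9.27% the Hes site. The E-box was present in a promoter of *Tle3*, *Tle4* and *Tle6* and in none of *Tle1* or *Tle2*. The Hes site was present 2 times in the promoter of *Tle1* and in none of the other 4 genes. A window of 30 bases around an E-box in each of *Tle3*, *Tle4* and *Tle6* is shown 5′ to 3′ along the gene, with the E-box in capitals.
Tle3: gtcccgtggcccCACGTGggagcctcgcac
Tle4: acgccctgtcccCACGTGggcctagcctgc
Tle6: tggctcgcagccCACGTGggctcgccgcct
These lie at chr9:61372286-61372315 on the plus strand, chr19:14598376-14598405 on the minus strand and chr10:81601066-81601095 on the minus strand. The promoter of *Tle6* held 2 matches, of which the one farther from the start is shown. A match is a description of the sequence only, and no binding data were analysed here.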
